A study of Mus musculus with 16 samples.

Results

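The genes described here make cholesterol or keep its amount in check. They are 28 of the 20101 genes in the deposited expression table, picked by symbol: 6 enzymes of the mevalonate route, 2 of isoprenoid synthesis, 3 from squalene to lanosterol, 8 from lanosterol to cholesterol, 7 of the SREBP control system and 2 sterol-controlled targets. All 28 passed the filter on low values and are among the 12667 genes tested. RNA was sequenced from eWAT, the epididymal white fat of mice aged 21 weeks, in 4 groups of 4 mice. Both genotypes, WT and KO, were kept on each of 2 diets, chow and HFD. Chow held 5% fat, and the high-fat diet (HFD) held 60% fat and was fed from the age of 5 weeks. KO is the word of the sample titles, and for those samples the genotype field reads ApoA4 knockdown. The sources used here give neither the mouse strain nor how, or in which cells, the knockdown was made.

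Cells build cholesterol from acetyl-CoA through mevalonate, farnesyl diphosphate, squalene and lanosterol. The transcription factors SREBP1 and SREBP2 switch on the genes of this route and of fatty acid synthesis: when membrane sterol is low, Scap carries them to the Golgi, proteases cut them loose, and the freed part enters the nucleus, whereas sterol makes the Insig proteins hold Scap back. Fat tissue is known as a large store of free cholesterol, most of it at the lipid droplets of fat cells, and its macrophages take up lipid from dying fat cells.

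Promoter sequence is shown for 4 genes on which the results below turn: Hmgcs1 and Dhcr7, an early and the last enzyme, and the Insig pair, whose RNAs moved in opposite directions on the high-fat diet in WT-labelled mice. The stretches are from RefSeq promoter windows of GRCm38.p6, each reaching from 250 bases before to 50 bases after a transcript start, and 24 of the 28 genes had a window. Each stretch is the 120 bases before the start with the most motif matches, printed 5′ to 3′ on the gene's strand. Capitals mark matches on either strand to TCACNCCAC (the sterol regulatory element bound by SREBP), CCAAT (NF-Y) or GGGCGG (Sp1), the latter pair being known partners of SREBP. They lie at chr13:119690214-119690333 (Hmgcs1, plus strand), chr7:143830094-143830213 (Dhcr7, plus), chr5:28071183-28071302 (Insig1, plus) and chr1:121332606-121332725 (Insig2, minus).
Hmgcs1: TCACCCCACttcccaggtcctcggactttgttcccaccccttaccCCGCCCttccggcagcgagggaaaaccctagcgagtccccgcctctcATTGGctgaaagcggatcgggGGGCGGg
Dhcr7: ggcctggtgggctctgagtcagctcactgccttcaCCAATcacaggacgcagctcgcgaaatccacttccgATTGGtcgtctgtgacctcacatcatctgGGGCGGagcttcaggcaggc
Insig1: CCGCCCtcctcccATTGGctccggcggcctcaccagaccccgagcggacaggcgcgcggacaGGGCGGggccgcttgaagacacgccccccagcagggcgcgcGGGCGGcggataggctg
Insig2: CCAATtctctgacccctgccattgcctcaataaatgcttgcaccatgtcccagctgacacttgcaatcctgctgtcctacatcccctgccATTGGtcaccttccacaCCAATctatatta

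The sterol regulatory element in these exact letters was found in 1 of the 24 genes, Hmgcs1, at -137 to -129 from the start, against 1.44% of all 27025 genes with a window. CCAAT was found in 20 of the 24 genes against 41.1% of all genes, and GGGCGG in 21 of the 24 against 38.2%. No matches to different motifs overlapped in the windows of the listed genes. Dhcr7 and Insig2 have 3 windows each, and the one with the most matches is shown. The printed Insig2 stretch holds 3 CCAAT matches and no GGGCGG, while the other 3 stretches hold both. The Insig2 windows that are not printed do hold matches to GGGCGG, at -128 to -123 and at -6 to -1 from their starts.

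Before the results, 3 features of the libraries need naming. Apoa4 RNA, which should be low where Apoa4 is knocked down, was higher in the KO-labelled libraries, at 1.96 to 5.96 FPKM on chow and 4.93 to 9.63 FPKM on HFD, against 0 to 0.29 FPKM in the 8 WT-labelled libraries. Every direction of KO against WT below therefore refers to the labels. FPKM is a fragment count scaled to the length of the transcript and to the depth of the library. For the 14 listed genes of epididymis and testis, the sum was 13590 FPKM in replicate 2 of chow KO, 5544 FPKM in replicate 4 of HFD KO and 341.8 FPKM in replicate 2 of HFD KO. It was no more than 43.37 FPKM in the remaining 13 libraries, and counts and medians of each comparison below, with the values that moved most, are also given without these 3 libraries. Crisp1, Gpx5 and Lcn9, secreted proteins of the epididymis, led that list, at 180.3, 4187 and 2788 FPKM in chow KO replicate 2. The 16 adipocyte markers, all above 0 in every library, summed to between 34700 and 42840 FPKM in 7 of the 8 chow libraries, 18830 in chow KO replicate 2, and 4573 to 22810 on HFD. The 16 macrophage markers, also all above 0 in every library, summed to 846.2 to 1199 FPKM on chow and 2899 to 13200 on HFD. The most abundant adipocyte markers were Fabp4, Cfd and Adipoq, at 14312 to 16176, 6789 to 8658 and 3620 to 4573 FPKM in chow WT and 3665 to 10795, 59.6 to 504.4 and 412.6 to 1909 FPKM in HFD WT. Those of macrophages were Lyz2, Lgals3 and Gpnmb, at 512.4 to 608.7, 59.8 to 90.6 and 8.09 to 12.1 FPKM in chow WT and 874.8 to 4149, 520.2 to 2027 and 259.1 to 2562 FPKM in HFD WT. In whole tissue, fewer cells of a type and less RNA per cell cannot be told apart.

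**Figure D1:**
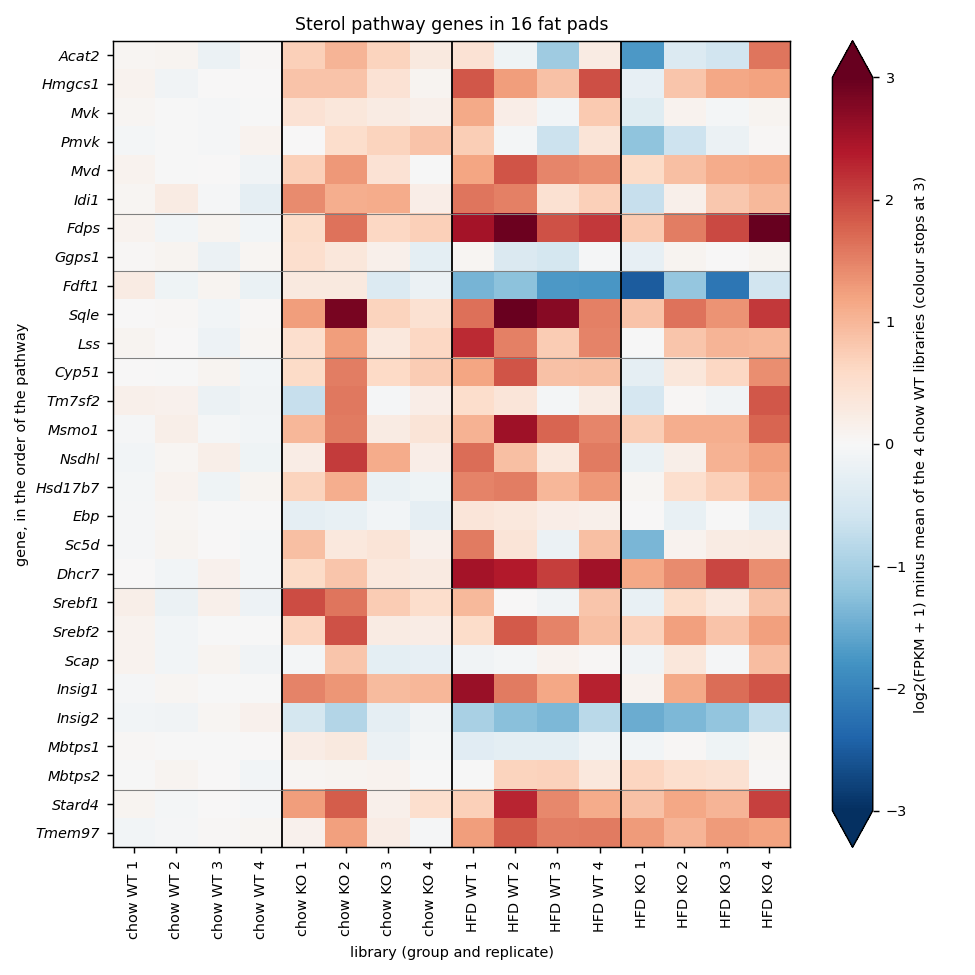
Expression of the 28 genes (rows, in pathway order) in each of the 16 libraries (columns), as log2(FPKM + 1) minus the mean of the 4 chow WT libraries; colour stops at 3 on either side, and lines part the groups and the roles. The chow WT libraries are nearly uniform, the HFD WT libraries are red for most enzymes with Fdft1 and Insig2 blue, and the KO-labelled libraries vary from mouse to mouse, with HFD KO replicate 1 pale or blue for most genes.

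The first comparison asks what the high-fat diet did in WT-labelled mice. RNA of 17 of the 28 genes rose and that of 2 fell, where 24.6% of all tested genes rose and 17.2% fell. The 17 span the whole route, from Hmgcs1 (1.48 on the log2 scale) through Fdps (2.36) and Sqle (2.22) to Dhcr7 (2.37), and include Srebf2, Insig1, Stard4 and Tmem97. The 2 that fell were Fdft1, the enzyme that commits farnesyl diphosphate to sterols, and Insig2. The median log2 difference of the 28 was 1.09, against 0.063 over all tested genes. Differences are of log2(FPKM + 1) between group means, which understates changes of low genes, and a gene was called where limma's p, adjusted over all tested genes by Benjamini-Hochberg, was under 0.05. Each SE below comes from 1 estimate of the spread per gene, shared by all 4 groups. All 4 HFD libraries lay above all 4 chow libraries for 16 of the 28 genes (26.1% of all tested genes) and below them for 3, Fdft1, Insig2 and Mbtps1 (20.7%). Scaling the libraries by quantiles moved the median of all genes by -0.11 and the share of higher among all called genes from 58.8% to 45.8%. With that scaling 14 of the 28 rose and 3 fell. Without the 3 libraries with epididymal genes 17 rose and 3 fell, Mbtps1 being the addition (adjusted p = 0.0404). The median of the 28 stayed at 1.09, since those 3 libraries are all KO-labelled.

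The marker counts that follow stand beside 24.6% of all tested genes higher and 17.2% lower on HFD in WT-labelled mice. In KO-labelled mice these shares were 23.5% and 15.3%. A count near these shares is no trait of its list. Markers of dividing cells rose on the same diet: 11 of 12 in WT-labelled and 11 of 12 in KO-labelled mice, with medians of 2.23 and 1.76 on the log2 scale. They summed to 45.64 to 48.97 FPKM in chow WT, 49.73 to 76.46 in chow KO, 107.6 to 374.3 in HFD WT and 107.8 to 352.3 in HFD KO. The most abundant were Pcna (26.4 to 27.8 FPKM in chow WT and 57.4 to 173.2 in HFD WT), Tyms (9.22 to 12.9 and 7.51 to 10.6) and Mki67 (0.75 to 1.15 and 6.96 to 31.9). Their part in the rise of the sterol genes was not tested, nor was that of the macrophage markers. Of 9 mesothelium markers, led by Krt19, Upk3b and Krt18, 5 fell in WT-labelled and 4 in KO-labelled mice. Their sum was 56.37 to 142.0 FPKM in chow WT and 59.06 to 376.7 FPKM in chow KO. On HFD it was 32.93 to 54.98 FPKM in WT and 45.3 to 384.8 FPKM in KO. Chow KO replicate 2 and HFD KO replicates 2 and 4, the libraries with epididymal genes, held 376.7, 384.8 and 207.6 FPKM. The remaining KO-labelled libraries held 59.06 to 106.7 FPKM on chow and 45.3 to 50.66 FPKM on HFD. Krt18 was at 114.4, 83.3 and 105.5 FPKM in those with epididymal genes and at most 5.12 FPKM elsewhere. Upk3b was at 25.1, 22.6 and 8.39 FPKM there, against 7.79 to 55.9 FPKM elsewhere. Of 8 progenitor and fibroblast markers, led by Dcn, Col3a1 and Col1a1, 3 rose and 2 fell in WT-labelled and 3 rose in KO-labelled mice. In the order of groups given for mesothelium, their sums were 1148 to 1506, 984.3 to 1441, 1422 to 2188 and 1238 to 2827 FPKM. Of 7 endothelium markers none changed in WT-labelled mice and 1 rose in KO-labelled mice, with sums of 62.81 to 122.1, 42.03 to 91.11, 45.11 to 162.2 and 66.72 to 108.3 FPKM, led by Pecam1, Cdh5 and Kdr. Of 7 genes of steroid-making cells, led by Cyp17a1, Star and Insl3, only Star passed the filter on low values, and it rose in KO-labelled mice (0.59, adjusted p = 0.0329); their sum reached at most 3.27 FPKM (chow) and 2.08 FPKM (HFD) in WT-labelled libraries and 19.88 FPKM (chow) and 45.76 FPKM (HFD) in KO-labelled ones. Of the 14 epididymis and testis genes 5 passed the filter and none was called in either diet comparison.

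Counts by role on HFD in WT-labelled mice also stand beside 24.6% of all tested genes higher and 17.2% lower. Among the mevalonate enzymes, 3 of 6 rose and none fell. Hmgcs1 (chromosome 13, 119690351 to 119708260), which makes HMG-CoA, stood at 43.5, 37.4, 40.7 and 41.2 FPKM in chow WT replicates 1 to 4 and at 149, 98.6, 75.3 and 159 FPKM in HFD WT replicates 1 to 4. The groups do not overlap, and replicates 1 and 4 were the high HFD libraries. Hmgcs1 rose by 1.48 (SE 0.30, adjusted p = 0.00156). Mvd, which decarboxylates mevalonate diphosphate into the isoprene unit, went from 1.73 to 2.12 FPKM on chow to 5.64 to 9.72 FPKM on HFD and rose by 1.48 (SE 0.23, adjusted p = 0.000264). Idi1, the isomerase of that unit, rose by 1.08 (SE 0.36, adjusted p = 0.0258). The call of Idi1 was lost in 5 of 28 alternatives, among them without HFD WT replicate 1 or 2 and without chow WT replicate 3 or 4 (adjusted p from 0.00806 to 0.0794 over the alternatives). Of the others, Mvk, mevalonate kinase, differed by 0.51 (adjusted p = 0.0610; 0.0103 to 0.181 over the alternatives, past the threshold in 4 of 28), and Pmvk, the next kinase, by 0.10 (adjusted p = 0.802). Acat2, which joins acetyl-CoA units, differed by -0.12 (adjusted p = 0.863).

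Farnesyl diphosphate, the branch point between sterols and other isoprenoids, is made by Fdps. Fdps (chromosome 3, 89093588 to 89101967) stood at 6.62, 5.67, 6.46 and 5.71 FPKM in the chow WT libraries and at 39.2, 53.5, 25.7 and 29.7 FPKM in the HFD WT libraries. All HFD values lie far above the chow values, and the rise was 2.36 (SE 0.44, adjusted p = 0.000779). Ggps1, which lengthens farnesyl to geranylgeranyl diphosphate for protein prenylation, differed by -0.23 (adjusted p = 0.284), from 13.5 ± 1.08 to 11.50 ± 2.48 FPKM (SD, n = 4).

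From squalene to lanosterol, Sqle and Lss rose while Fdft1 fell. Fdft1, squalene synthase (chromosome 14, 63145150 to 63181687), stood at 31.1, 23.7, 27.6 and 22.4 FPKM on chow and at 9.33, 10.4, 7.12 and 7.02 FPKM on HFD in WT-labelled mice. The groups do not overlap and the fall was -1.53 (SE 0.33, adjusted p = 0.00217). Sqle, squalene epoxidase, stood at 1.89, 1.90, 1.69 and 1.90 FPKM on chow and at 7.98, 21.3, 17.9 and 7.14 FPKM on HFD. Every HFD library lay above every chow library, and here replicates 2 and 3 were the high ones. Sqle rose by 2.22 (SE 0.46, adjusted p = 0.00157), and Lss, which closes the sterol rings, by 1.495 (SE 0.29, adjusted p = 0.00111). Exons of Fdft1 overlap Ctsb, those of Fdps overlap Gm43738 and those of Lss overlap 4930483K19Rik. The sources used here do not give the strand of the libraries, and the values may include reads of those neighbours.

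Of the 8 enzymes between lanosterol and cholesterol, 6 rose and none fell. Dhcr7 (chromosome 7, 143823167 to 143848410), which makes cholesterol in the last step, had the largest log2 difference of the 28 genes. It stood at 2.97, 2.72, 3.35 and 2.82 FPKM in chow WT and at 21.4, 19.7, 15.7 and 21.7 FPKM in HFD WT. All HFD libraries were close together and far above the chow libraries, with a rise of 2.37 (SE 0.18, adjusted p = 1.24e-06). Msmo1, which oxidises the methyl groups of the ring, rose by 1.70 (SE 0.32, adjusted p = 0.000883), and Hsd17b7, a ketone reductase of the same step, by 1.33 (SE 0.27, adjusted p = 0.00151). Cyp51, lanosterol demethylase, rose by 1.21 (SE 0.31, adjusted p = 0.00652). Nsdhl, the decarboxylating dehydrogenase of the methyl groups, rose by 1.11 (SE 0.42, adjusted p = 0.0456), a call lost in 12 of 28 alternatives (adjusted p from 0.0106 to 0.112). Leaving out HFD WT replicate 1, 2 or 4, any chow WT library, chow KO replicate 3 or HFD KO replicate 2 each ended it. Ebp, the sterol isomerase, rose by 0.26 (SE 0.10, adjusted p = 0.0375), from 22.1 ± 0.52 to 26.7 ± 1.94 FPKM (SD, n = 4). That call was lost in 9 of 28 alternatives (adjusted p from 0.00915 to 0.557), namely under median-of-ratios or quantile scaling and without any 1 chow WT library or HFD WT replicate 1, 2 or 3. Sc5d, a desaturase, stood at 105, 45.7, 30.8 and 66.2 FPKM in HFD WT against 33.2 to 36.7 FPKM in chow WT. With HFD libraries on both sides of the chow range, its difference was 0.67 (adjusted p = 0.152). Tm7sf2, a sterol reductase, differed by 0.27 (adjusted p = 0.672).

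In the SREBP system, 3 of 7 genes rose and 1 fell (24.6% and 17.2% of all tested genes). Insig1 (chromosome 5, 28071412 to 28078662), itself an SREBP target, stood at 27.8, 29.4, 28.1 and 28.4 FPKM in chow WT and at 177, 85.2, 64.7 and 144 FPKM in HFD WT. Even the lowest HFD library was above every chow library, and the rise was 1.90 (SE 0.35, adjusted p = 0.000731). Insig2 (chromosome 1, 121304353 to 121332662), its relative with the same retention function, went the other way. It stood at 28.5, 27.98, 31.4 and 33.1 FPKM in chow WT and at 14.99, 12, 11.2 and 16.8 FPKM in HFD WT. The fall was -1.10 (SE 0.19, adjusted p = 0.000481), with no overlap between the groups. Srebf2, which encodes SREBP2, stood at 11.2, 9.65, 10.2 and 10.3 FPKM in chow WT and at 15.6, 39.6, 30.8 and 20.2 FPKM in HFD WT and rose by 1.197 (SE 0.33, adjusted p = 0.0104). Srebf1, which encodes SREBP1, differed by 0.43 (SE 0.33, adjusted p = 0.310), and 2 of its HFD libraries lay inside the chow range. The protease gene Mbtps2 rose by 0.42 (SE 0.16, adjusted p = 0.0433), a call lost in 16 of 28 alternatives (adjusted p from 0.000445 to 0.186). These were median-of-ratios and quantile scaling, no filter, the fit of both groups alone, and leaving out any chow WT library, chow KO replicate 1, 3 or 4, HFD WT replicate 2, 3 or 4, or HFD KO replicate 2 or 3. Mbtps1, the other protease, differed by -0.26 (adjusted p = 0.0639; 0.00218 to 0.206 over the alternatives, past the threshold in 8 of 28), and Scap, the escort, by -0.0098 (adjusted p = 0.979).

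Both sterol-controlled targets rose. Stard4, a carrier that moves cholesterol between membranes, stood at 1.42, 1.22, 1.33 and 1.24 FPKM in chow WT and at 2.78, 10.3, 5.30 and 4.01 FPKM in HFD WT. It rose by 1.40 (SE 0.37, adjusted p = 0.00776), with HFD WT replicate 2 high above its group. Tmem97, a sterol-responsive membrane protein, stood at 5.03, 5.21, 5.54 and 5.59 FPKM in chow WT and at 14.2, 21.4, 17.5 and 17.6 FPKM in HFD WT. The groups are far apart, with a rise of 1.55 (SE 0.21, adjusted p = 0.000108).

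**Figure D2:**
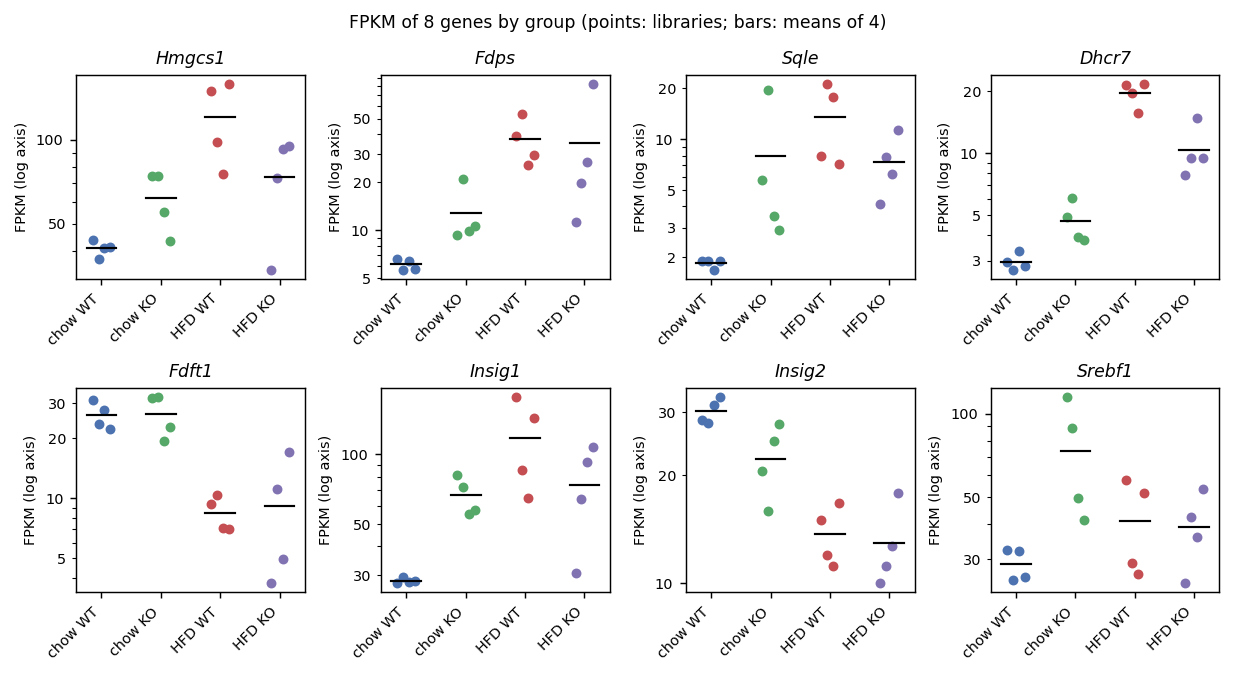
FPKM (log axis) of 8 of the genes in each library (points) of the 4 groups, with the mean of each 4 as a bar. The HFD WT points lie above the chow WT points for Hmgcs1, Fdps, Sqle, Dhcr7 and Insig1 and below them for Fdft1 and Insig2; HFD KO replicate 1 is the lowest HFD point for all 8 genes.

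In KO-labelled mice, the same diet comparison gave 2 genes that rose, Dhcr7 and Tmem97, and 3 that fell, Pmvk, Fdft1 and Insig2, where 23.5% of all tested genes rose and 15.3% fell. The median log2 difference of the 28 was 0.05, against 0.082 over all tested genes. Dhcr7 stood at 4.88, 6.08, 3.93 and 3.78 FPKM in chow KO and at 7.80, 9.52, 14.9 and 9.46 FPKM in HFD KO. It was the only one of the 28 whose HFD KO libraries all lay above the chow KO libraries (17.5% of all tested genes), and it rose by 0.99 (SE 0.18, adjusted p = 0.000851). Tmem97 rose by 0.81 (SE 0.21, adjusted p = 0.00781), but chow KO replicate 2, at 13.8 FPKM, reached into the HFD KO range of 11.95 to 14.4 FPKM. Fdft1 stood at 31.9, 32.2, 19.3 and 22.7 FPKM in chow KO and at 3.77, 11.1, 4.98 and 16.98 FPKM in HFD KO and fell by -1.60 (SE 0.33, adjusted p = 0.00199). Fdft1 and Mvk were the genes with every HFD KO library below every chow KO library (11.3% of all tested genes), although Mvk, at -0.36, did not pass the test (adjusted p = 0.184). Insig2 stood at 20.6, 15.9, 24.9 and 27.9 FPKM in chow KO and at 10.02, 11.2, 12.7 and 17.9 FPKM in HFD KO. Its fall was -0.74 (SE 0.19, adjusted p = 0.00690). Pmvk fell by -1.01 (SE 0.29, adjusted p = 0.0133), from 26.1 ± 6.18 to 12.9 ± 4.82 FPKM (SD, n = 4).

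The remaining 23 genes did not pass in KO-labelled mice. Hmgcs1 differed by 0.18 (adjusted p = 0.661), Sqle by 0.18 (adjusted p = 0.780), Insig1 by 0.021 (adjusted p = 0.969) and Srebf2 by 0.25 (adjusted p = 0.575). Fdps differed by 1.09 (adjusted p = 0.0600; 0.00266 to 0.159 over the alternatives, past the threshold in 4 of 28) and Srebf1 by -0.83 (adjusted p = 0.0574; 0.0223 to 0.178, past it in 6 of 28). Among the mevalonate enzymes Mvd differed by 0.32, Idi1 by -0.64 and Acat2 by -0.95, and without HFD KO replicate 4 Acat2 was past the threshold at -1.58 (adjusted p = 0.00224; 0.00224 to 0.445 over the alternatives). Ggps1 differed by -0.20 and Lss by 0.036. Between lanosterol and cholesterol the values were -0.34 for Cyp51, 0.064 for Tm7sf2, 0.37 for Msmo1, -0.35 for Nsdhl, 0.24 for Hsd17b7, 0.084 for Ebp and -0.63 for Sc5d. In the control system they were 0.22 for Scap, -0.10 for Mbtps1 and 0.34 for Mbtps2, and Stard4 differed by 0.35. Without the 3 libraries with epididymal genes, 3 of the 28 rose and 4 fell, with a median of -0.046. Acat2 (-1.70, adjusted p = 0.00361) and Mbtps2 (0.49, adjusted p = 0.0452) were the additions, Fdft1 was at -2.23, Dhcr7 at 1.19, Insig2 at -1.04, Tmem97 at 1.17 and Pmvk at -1.19, and Sc5d and Fdps, not called, were at -1.05 and 0.76. Without HFD KO replicate 4 alone, 3 rose and 5 fell. With array weights, which give variable libraries less weight, 11 changed: 7 rose and 4 fell, with a median of 0.181 (0.11 over all tested genes). In WT-labelled mice array weights gave 18 that rose and 3 that fell. Among all genes called in this comparison 60.5% were higher, a share that was 49.7% under median-of-ratios scaling and 42.3% under quantile scaling (shift of the median of all genes -0.15), with 2 of the 28 higher and 5 lower under both.

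**Figure D3:**
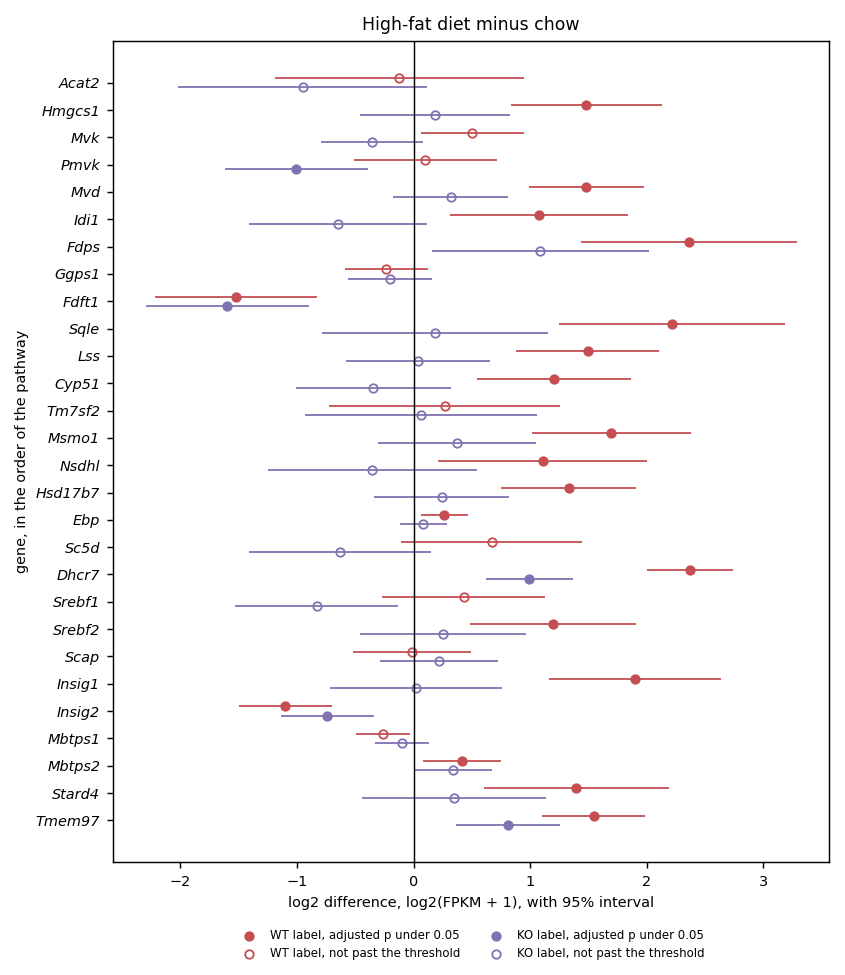
Log2 difference of HFD minus chow on log2(FPKM + 1) for each gene (rows), with 95% intervals, in WT-labelled (red) and KO-labelled (purple) mice; filled points have an adjusted p under 0.05. Most red points lie to the right of 0, up to 2.37 for Dhcr7, the purple point lies to the left of the red one for 24 of the 28 genes, and for Fdft1, Insig2, Dhcr7 and Tmem97 both points are filled and on the same side of 0.

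Whether the diet difference itself differed between the genotype labels was tested by the interaction: the HFD minus chow difference in KO-labelled mice, less the same in WT-labelled mice. It was negative for 24 of the 28 genes and for 6037 of the 12667 tested genes, with medians of -1.10 and 0.022. Dhcr7 was the only one past the threshold: its rise on HFD was smaller in KO-labelled mice by -1.38 (SE 0.25, adjusted p = 0.0272), where 0.253% of all tested genes had a positive and 0.0395% a negative interaction past it. This call was lost in 11 of 27 alternatives (adjusted p from 0.00792 to 0.0893). Among them were a block for the replicate number (-1.38, adjusted p = 0.0893) and leaving out the 3 libraries with epididymal genes, where the value was -1.18 (adjusted p = 0.0834), the median of the 28 was -1.13, 24 of the 28 were negative and none was called. The call was also lost without any 1 chow WT library, without chow KO replicate 1, without HFD WT replicate 1, 2 or 4, and without HFD KO replicate 2, at values of -1.42 to -1.33. The next smallest p-values belonged to Insig1, at -1.88 (SE 0.49, adjusted p = 0.160), and Lss, at -1.46 (SE 0.41, adjusted p = 0.196). Without the 3 libraries with epididymal genes, the interactions that moved most were those of Acat2 (-1.58, from -0.83) and Fdft1 (-0.71, from -0.075). Cyp51 then had the smallest adjusted p of the 28 (-1.68, adjusted p = 0.0706). For the other 27 genes a difference between the genotypes in the diet response is thus not shown, and an unadjusted p under 0.05 was found for 16 of the 28 genes and 1284 of all tested genes.

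On chow, none of the 28 genes passed the test between KO-labelled and WT-labelled mice, where 0.426% of all tested genes were higher and 0.979% lower in limma. Values leaned to one side: 25 of the 28 differences were positive, against 8166 of the 12667 tested genes. The median was 0.535 for the 28 and 0.092 over all tested genes. An unadjusted p under 0.05 was found for 14 genes (1861 of all tested genes). Srebf1 had the smallest p. It stood at 32.5, 25.2, 32.0 and 26.0 FPKM in chow WT and at 115, 88.8, 49.7 and 41.5 FPKM in chow KO, a difference of 1.21 (SE 0.33, adjusted p = 0.0876). Insig1 stood at 81.6, 72.1, 55.4 and 57.2 FPKM in chow KO against 27.8 to 29.4 FPKM in chow WT. Its difference was 1.18 (SE 0.35, adjusted p = 0.120), and the call was made in 3 of 28 alternatives: with the chow groups alone (adjusted p = 0.00316), with array weights, and without HFD KO replicate 1 (adjusted p from 0.00316 to 0.262 over the alternatives). Sqle, at 5.75, 19.4, 3.49 and 2.91 FPKM in chow KO, differed by 1.30 (SE 0.46, adjusted p = 0.205), with chow KO replicate 2 far above the rest. Without the 3 libraries with epididymal genes, 22 of the 28 differences were positive, with a median of 0.422 against 0.033 over all tested genes, and none was called. The difference was then 0.79 for Sqle, 1.08 for Srebf1, 1.14 for Insig1, 0.51 for Nsdhl (0.91 with all libraries), 0.36 for Srebf2 (0.75) and -0.18 for Tm7sf2 (0.26).

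Of the 28 genes, 14 had all chow KO libraries above all chow WT libraries (8.94% of all tested genes): Acat2, Mvk, Fdps, Sqle, Lss, Cyp51, Msmo1, Nsdhl, Sc5d, Dhcr7, Srebf1, Srebf2, Insig1 and Stard4. Ebp and Insig2 had all chow KO libraries below (6.25%). The chow WT libraries were tight and the chow KO libraries were not: the median coefficient of variation of the 28 genes was 7.98% in chow WT and 35.2% in chow KO, against 9.73% and 21.5% over all tested genes. Chow KO replicate 2, the library with the most epididymal RNA and the lowest adipocyte sum on chow, held the highest value of its group for 18 of the 28 genes, Srebf2 among them at 41.7 FPKM against 12.1 to 16.6 FPKM in the other 3. How often this library was the highest of its group among all tested genes was not counted. The part of epididymal RNA in these values was not tested. As all 16 libraries share 1 estimate of the spread, the number called depends on the fit: 3 of the 28 with array weights, 2 with the chow groups alone and 1 without HFD KO replicate 1.

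On the high-fat diet the values leaned the other way, and again none of the 28 passed, where 0.0237% of all tested genes were higher and 0.00789% lower in KO-labelled mice in limma. Of the 28 differences 24 were negative, against 4462 of the 12667 tested genes. The median was -0.465 for the 28 and 0.09 over all tested genes. An unadjusted p under 0.05 was found for 11 genes (1500 of all tested genes). Both genotype comparisons enter the interaction, and the HFD comparison shares its libraries with both diet comparisons. Dhcr7 had the smallest p, at -0.88 (SE 0.18, adjusted p = 0.142), with 7.80 to 14.9 FPKM in HFD KO against 15.7 to 21.7 FPKM in HFD WT. It was called in 3 of 28 alternatives: median-of-ratios scaling, quantile scaling, and without HFD KO replicate 3, where it was at -1.05 (adjusted p = 0.0192; range over the alternatives 0.0192 to 0.543). Ebp stood at 22.1, 18.8, 21.99 and 17.8 FPKM in HFD KO and at 28.8, 27.9, 25.6 and 24.6 FPKM in HFD WT, a difference of -0.39 (SE 0.10, adjusted p = 0.239). Dhcr7, Ebp and Mvd were the 3 genes with all HFD KO libraries below all HFD WT libraries (1.02% of all tested genes), and none had all above (5.81%).

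The other values for KO against WT on HFD, none past the threshold, were as follows by role. In the mevalonate route they were -0.15 for Acat2, -0.74 for Hmgcs1, -0.57 for Mvk, -0.60 for Pmvk, -0.55 for Mvd and -0.77 for Idi1, so all 6 were negative. Fdps was at -0.40 and Ggps1 at 0.21. Fdft1 was at -0.077, Sqle at -0.74 and Lss at -0.79. From lanosterol onward, Cyp51 was at -0.69, Tm7sf2 at 0.055, Msmo1 at -0.53, Nsdhl at -0.55, Hsd17b7 at -0.73 and Sc5d at -0.86. In the control system Srebf1 was at -0.048, Srebf2 at -0.19, Scap at 0.29, Insig1 at -0.70, Insig2 at -0.091, Mbtps1 at 0.23 and Mbtps2 at -0.016. Stard4 was at -0.12 and Tmem97 at -0.34. Without the 3 libraries with epididymal genes the median was -0.75, with 25 of the 28 negative and none called. The values that moved most were those of Acat2 (-1.02, adjusted p = 0.259), Fdft1 (-0.81, adjusted p = 0.141), Tm7sf2 (-0.57, adjusted p = 0.298) and Fdps (-0.98, adjusted p = 0.193). Median-of-ratios and quantile scaling shifted the median of all genes in this comparison by -0.14 and -0.12.

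**Figure D4:**
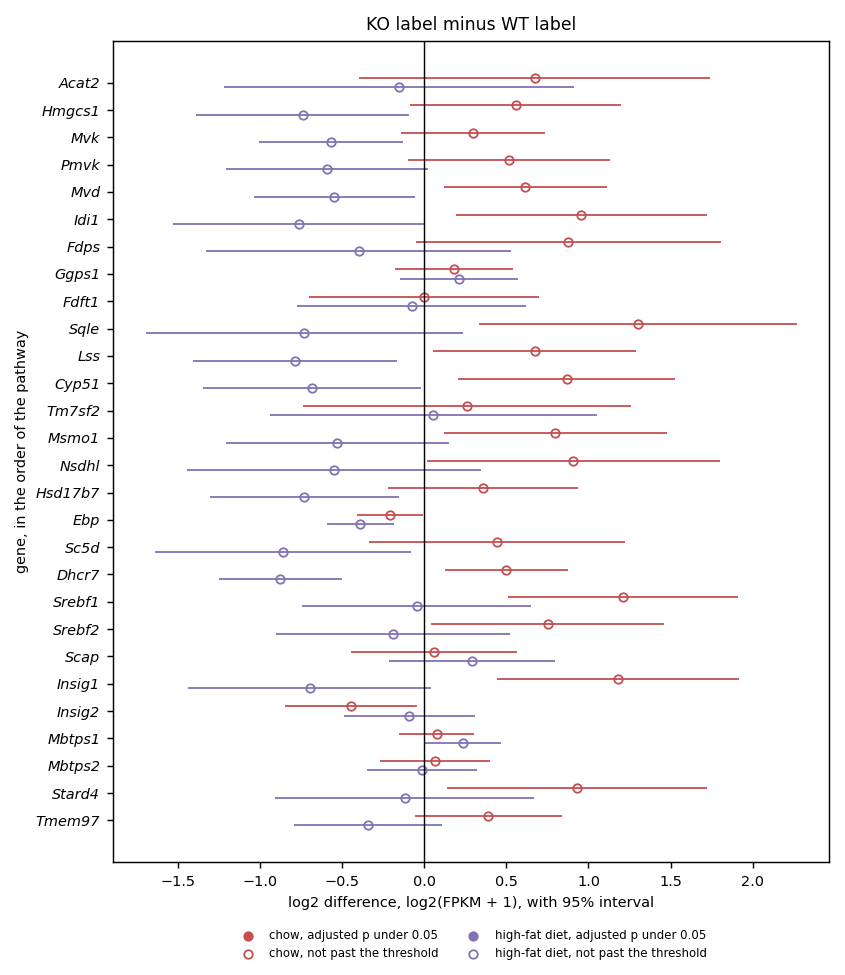
Log2 difference of KO-labelled minus WT-labelled mice on log2(FPKM + 1) for each gene (rows), with 95% intervals, on chow (red) and on HFD (purple). All points are open, since none had an adjusted p under 0.05; 25 of the 28 chow values are positive and 24 of the 28 HFD values are negative.

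In the HFD groups the 28 genes varied from mouse to mouse. With any 1 library left out, their median between genotypes on HFD ranged from -0.674 to -0.311. That of the interaction ranged from -1.293 to -0.889. The median coefficient of variation of the 28 genes was 35.8% in HFD WT and 37.2% in HFD KO (21.8% and 22.3% over all tested genes). HFD KO replicate 1, with the lowest adipocyte sum of all libraries (4573 FPKM), had the lowest value of its group for 24 of the 28 genes. HFD KO replicate 4, with the highest adipocyte sum of its group (17330 FPKM) and abundant epididymal RNA, had the highest for 20. Its Cyp17a1, a steroid-making enzyme, was at 42.6 FPKM, against at most 0.82 FPKM elsewhere, and its Acat2 was at 70.4 FPKM against 6.15 to 16.6 FPKM in the other 3. How often HFD KO replicates 1 and 4 were the extremes of their group among all tested genes was not counted. The part of fat-cell content and of steroid-making cells in these values was not tested.

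Among the HFD WT mice the 28 genes split in a way that was seen only after the values were known. Replicates 1 and 4 held adipocyte sums of 22810 and 15620 FPKM and macrophage sums of 2899 and 5890 FPKM. Replicates 2 and 3 held adipocyte sums of 9009 and 7260 FPKM and macrophage sums of 11370 and 13200 FPKM. For 11 genes, Acat2, Hmgcs1, Mvk, Pmvk, Ggps1, Nsdhl, Sc5d, Dhcr7, Srebf1, Insig1 and Insig2, replicates 1 and 4 both lay above replicates 2 and 3. For 6 genes, Mvd, Sqle, Msmo1, Srebf2, Mbtps2 and Stard4, the order was the reverse, and 11 genes followed neither. How many of all tested genes split in these ways was not counted. With 4 mice this is a description only.

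**Figure D5:**
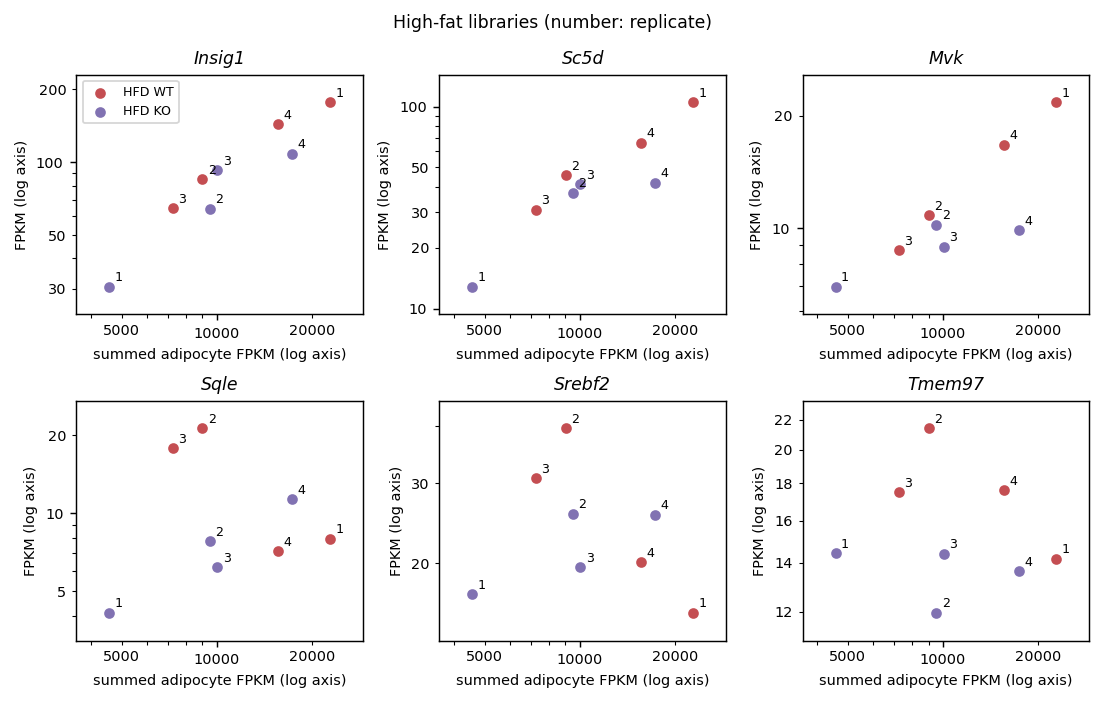
FPKM of 6 genes, chosen after their values were seen, against the summed FPKM of 16 adipocyte markers (both log axes) in the 8 HFD libraries, numbered by replicate. Insig1, Sc5d and Mvk are highest in HFD WT replicates 1 and 4, which have high adipocyte sums. Sqle and Srebf2 are highest in HFD WT replicates 2 and 3, which have low ones, and Tmem97 is highest in HFD WT replicate 2. HFD KO replicate 4 has a higher sum (17330 FPKM) than HFD WT replicate 4. Its Mvk (9.88 FPKM) and Sc5d (42.1 FPKM) lie below HFD WT replicate 2, and its Insig1 (108 FPKM) lies above. HFD KO replicate 1 has the lowest sum (4573 FPKM), with the lowest Sqle (4.12 FPKM) and Srebf2 at 17.1 FPKM.

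By the median over the 16 libraries, levels per transcript length spanned from 73.6 FPKM for Hmgcs1 and 64.4 FPKM for Insig1, through 40.0 FPKM for Sc5d, 38.8 FPKM for Srebf1 and 30.5 FPKM for Mbtps1, down to 3 FPKM for Hsd17b7 and 2.96 FPKM for Tm7sf2. The ranges of neighbours in this order overlap, as with Hmgcs1 (34.1 to 159 FPKM) and Insig1 (27.8 to 177 FPKM). In the chow WT group, where the spread was small, Mbtps1 (31.3 ± 0.63 FPKM) and Insig2 (30.2 ± 2.42 FPKM) did not differ beyond their SD, nor did Srebf1 (28.9 ± 3.87 FPKM) and Insig1 (28.4 ± 0.71 FPKM). Srebf1 stood above Srebf2 (10.3 ± 0.65 FPKM; SD, n = 4 in each case) in every chow WT library.

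Genes around the sterol route were followed as 4 further lists, whose counts stand beside 24.6% higher and 17.2% lower among all tested genes in WT-labelled mice and 23.5% and 15.3% in KO-labelled mice. In the lists for isoprenoid use and for sterol-regulated degradation, the shares that rose in WT-labelled mice are near that background. For isoprenoid use (dolichol, ubiquinone and protein prenylation), 4 of 13 rose and 1 fell on HFD in WT-labelled mice, with Nus1, a subunit of the dolichol-making enzyme, at 1.15 (SE 0.15, adjusted p = 8.84e-05) and Rabggta, a prenyltransferase subunit, at 0.64 (adjusted p = 0.00926). Coq2, which attaches the isoprenoid tail of ubiquinone, fell by -0.82 (adjusted p = 0.00563). In KO-labelled mice 3 rose and 3 fell. For sterol uptake, storage and efflux, 14 of 15 genes were tested, and 5 rose and 2 fell in WT-labelled mice. Nceh1, which splits cholesterol esters and is known from macrophages, rose by 3.43 (SE 0.45, adjusted p = 8.57e-05) and Lipa, the lysosomal esterase, by 3.25 (SE 0.43, adjusted p = 9.28e-05). Cyp27a1, which makes an oxysterol, fell by -1.96 (SE 0.17, adjusted p = 3.57e-06). In KO-labelled mice 6 rose and none fell, with Nceh1 at 3.496, Lipa at 3.39 and Cyp27a1 at -0.28 (adjusted p = 0.208). Of the macrophage markers, 14 of 16 rose in WT-labelled and 15 of 16 in KO-labelled mice, and their part in these rises was not tested.

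Among fatty acid targets of SREBP1, 2 of 14 rose and 4 fell in WT-labelled mice, and none rose and 8 fell in KO-labelled mice. Scd2, a desaturase, rose by 3.42 (SE 0.69, adjusted p = 0.00149) in WT-labelled mice and differed by 0.39 (adjusted p = 0.684) in KO-labelled mice. Acacb, which makes malonyl-CoA, fell by -2.57 (SE 0.47, adjusted p = 0.000756) and -1.94 (adjusted p = 0.00544). Gpam, which starts triglyceride assembly, fell by -1.48 (SE 0.36, adjusted p = 0.00484) and -1.67 (adjusted p = 0.00278). Of the adipocyte markers, 10 of 16 fell in each genotype, and their part in these falls was not tested. In WT-labelled mice 1 adipocyte marker rose, Dgat2, by 1.615 (adjusted p = 0.0207), and in KO-labelled mice none did. Of 9 genes of the sterol-regulated degradation of enzymes, 2 rose in WT-labelled mice, Aup1 by 0.49 (adjusted p = 0.00455) and Erlin2 by 0.65 (adjusted p = 0.0224), while Syvn1, a ubiquitin ligase, differed by 0.39 (adjusted p = 0.108). In KO-labelled mice 1 rose and 3 fell. Between genotypes on HFD, no gene of the 4 lists passed. On chow, Acly (1.92, adjusted p = 0.0166), Elovl6 (2.69, adjusted p = 0.0464) and Scarb1 (0.95, adjusted p = 0.0440) were higher in KO-labelled mice and Abcg1 (-1.89, adjusted p = 0.00617) and Cyp27a1 (-1.09, adjusted p = 0.00524) lower, genes named here after their values were seen. The interaction was past the threshold for Cyp27a1 alone of the 4 lists, at 1.68 (SE 0.24, adjusted p = 0.00788).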

How the data were processed

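The values are FPKM per gene, computed by the authors and deposited as 1 table of 16 libraries; per the submitters' processing notes STAR 2.7 and the builds GRCm38.p6 and mm10 were used. Not given in the sources used here were the tool behind the FPKM, its annotation and the strand. FPKM hold no read counts, so the depth behind a value is unknown, no counting interval is given, and precision is read from the spread within groups, pooled over the 4 groups. An SE of a WT comparison thus also holds the spread of the KO-labelled libraries. Without the 3 libraries with epididymal genes, the SE for HFD against chow in WT went from 0.435 to 0.245 for Fdps. For Fdft1 it went from 0.328 to 0.175, and for Mvk from 0.206 to 0.216. Summed over genes, libraries ranged from 413167 to 468186 FPKM. Circular RNA entries (14408) were not used.

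Genes at 1 FPKM or more in at least 4 libraries were tested on log2(FPKM + 1) with limma 3.58.1 in R 4.3.3, as 4 group means in 1 fit of all 16 libraries with a variance trend; the p-values measure the spread between these mice. The script was tested on simulated data. Benjamini-Hochberg adjustment ran over all 12667 tested genes in each of 5 comparisons. No set test was run. The genes and lists were chosen with earlier results of these data known. All 28 genes are named in both diet comparisons and in KO against WT on HFD, and in the other comparisons those past the threshold or the 3 with the smallest p. From each pathway list the 3 genes with the smallest p on HFD in WT are named. Marker lists are given as counts, summed FPKM and their most abundant genes. Alternatives were 3 scalings, pseudocounts of 0.1 and 0.5, no filter, a mean of at least 5 FPKM, array weights, no variance trend, only the groups compared, a block for the replicate number, leaving out 3 libraries, and leaving out each library. Gene positions and promoters are from RefSeq and overlaps from GENCODE, all on GRCm38.p6. Acat2 has a near-identical neighbour, Acat3, so its value is uncertain. Exons of Hmgcs1, Idi1, Ggps1, Cyp51, Tm7sf2, Srebf1, Scap and Mbtps2 also overlap other genes.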

Additional observations from a re-analysis of the deposited data

Results flagged for a closer look

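In 12 of 112 sets of 4 libraries (28 genes in 4 groups), 1 library stood far from the other 3, by Dixon's 95% criterion for groups of 4. For independent, normally spread values about 1 in 20 sets would pass by chance. Here FPKM were used unlogged and the 28 genes share their libraries, so that rate need not hold. How often such far values occur among all tested genes was not counted. Chow KO replicate 2 was far above its group for Fdps (21.1 FPKM against 9.38 to 10.6), Cyp51 (17.2 against 8.34 to 9.63), Srebf2 (41.7 against 12.1 to 16.6), Scap (27.6 against 12.3 to 14.5) and Tmem97 (13.8 against 5.21 to 6.45). HFD KO replicate 4 was far above its group for Acat2 (70.4 FPKM against 6.15 to 16.6), Tm7sf2 (12.5 against 1.65 to 2.85) and Stard4 (8.54 against 3.23 to 4.13). Thus 8 of the 12 fell in the pair of libraries with the most epididymal RNA. HFD KO replicate 1 was far below its group for Sc5d, at 12.9 FPKM against 37.6 to 42.1.

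In the tight chow WT group, small distances were enough. Replicate 3 was low for Ggps1 (11.9 FPKM against 13.9 to 14.3) and Sqle (1.69 against 1.89 to 1.90), and replicate 2 was high for Msmo1 (8.73 against 7.23 to 7.38). The response of Dhcr7 to the diet differed between the genotype labels in the test of the difference, with an interaction of -1.38 on the log2 scale (adjusted p = 0.0272 in limma). That call was lost in 11 of 27 alternatives, among them the replicate block (adjusted p = 0.0893) and leaving out the 3 libraries with epididymal genes (-1.18, adjusted p = 0.0834).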

How the results depend on the processing

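Of the 24 calls of these genes in the diet comparisons, 20 held in every alternative run and none changed sign; Idi1, Nsdhl, Ebp and Mbtps2 in WT did not hold. The replicate numbers are not shown to pair the mice: deviations of same-numbered libraries correlated from -0.63 to 0.37 across genes. With a replicate block, calls between genotypes on chow went from 54 higher and 124 lower genes to 115 in all, interaction calls from 32 positive and 5 negative genes to 18 in all and from 1 to 0 of the 28, and Nsdhl on HFD in WT lost its call (adjusted p = 0.0700). Pseudocounts and the variance trend changed no call of the 28. Mvd, Hsd17b7, Tm7sf2 and Stard4 have no value at a mean of at least 5 FPKM.

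Array weights gave 7496 genes and 11 of the 28 changed (7 higher and 4 lower) for HFD against chow in KO. They gave 1156 and 3 (all higher) between genotypes on chow, 10 genes on HFD, and 418 and 4 (all lower) for the interaction. The groups compared alone gave 357 genes and 2 of the 28 on chow and 2 genes on HFD. Between genotypes on HFD, 9 genes were called with median-of-ratios and 8 with quantile scaling, 1 of the 28 (Dhcr7) with each, and 0 genes at a mean of at least 5 FPKM. Without the 3 libraries with epididymal genes, 40 genes were called on HFD, and the interaction 65 genes and 0 of the 28.

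Leaving out 1 library gave 5 to 8 of the 28 for HFD against chow in KO. It gave 55 to 231 genes and 0 to 1 of the 28 between genotypes on chow, 3 to 10 genes and 0 to 1 of the 28 on HFD, and 12 to 45 genes and 0 to 1 of the 28 for the interaction. The lowest chow count came without chow WT replicate 2, the highest HFD counts without HFD KO replicate 3, and the lowest interaction count without chow WT replicate 4.

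Values near 0, none of them called, changed sign, and the cause was not tested. On HFD in WT, quantile scaling put Pmvk at -0.048, array weights put Pmvk at -0.056 and Scap at 0.021, and a constant sum per library put Scap at 0.069. On HFD in KO, median-of-ratios and quantile scaling put Lss at -0.054 and -0.115, Tm7sf2 at -0.018 and -0.0997, Ebp at -0.0198 and -0.083, and Insig1 at -0.087 and -0.0798. There, array weights put Tm7sf2 at -0.13 and Nsdhl at 0.16, and leaving out the 3 libraries put Tm7sf2 at -0.12 and Insig1 at -0.25. Between genotypes on HFD, Tm7sf2 was at -0.062, -0.113, -0.31 and -0.57 with median-of-ratios scaling, quantile scaling, array weights and without the 3 libraries; array weights put Srebf1 at 0.028, and leaving out the 3 libraries put Scap at -0.062 and Mbtps2 at 0.13. Leaving out 1 library gave -0.31 to 0.19 for Acat2, -0.11 to 0.35 for Pmvk and -0.0475 to 0.024 for Scap on HFD in WT. On HFD in KO it gave -0.10 to 0.70 for Sqle, -0.085 to 0.28 for Lss, -0.45 to 0.51 for Tm7sf2, -0.59 to 0.0435 for Nsdhl and -0.21 to 0.39 for Insig1. Between genotypes on HFD it gave -0.78 to 0.33 for Acat2, -0.42 to 0.22 for Fdft1, -0.46 to 0.33 for Tm7sf2, -0.23 to 0.15 for Srebf1, -0.41 to 0.023 for Srebf2, -0.25 to 0.012 for Insig2, -0.16 to 0.11 for Mbtps2 and -0.38 to 0.18 for Stard4.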
